A study of Rattus norvegicus with 18 samples.

Results

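Retinal ganglion cell (RGC) genes were followed in the neural retina and in the RPE/choroid of young rats, aged rats and aged rats given 8-aminoguanine (8-AG). The set was fixed by name and held 10 genes: Rbpms, Thy1, Nefl, Nefm, Nefh, Pou4f1, Pou4f2, Sncg, Slc17a6 and Nrn1. All 10 were found among the 32285 genes of the retina count table. In RPE/choroid 9 of the 10 passed the filter on low counts, and Pou4f1, with 0 to 6 counts per library, did not and was left out of the tests between groups there. Fischer344 rats of wild-type (WT) genotype were used, and the study's methods state that all rats were female. By the labels the young group was untreated and 4 months old, while the study's text gives a lower age for young rats, and the aged group drank water only and was 24 months old. The 8-AG group was also 24 months old and had received 8-AG, an endogenous purine, in its drinking water at 5 mg/kg body weight per day for 8 weeks from 22 months of age. Each group had 3 libraries in each tissue, 18 in all, made from bulk tissue by poly-A capture. The molecule label of the 3 8-AG retina libraries reads total RNA while the other 15 libraries read polyA RNA, so in retina this label and the treatment cannot be told apart.

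RGCs are the output neurons of the retina. They collect signals from bipolar and amacrine cells, and their axons form the optic nerve. Loss of RGCs or of their axons is the hallmark of glaucoma, and RGCs make up a small share of all retinal cells, most of which are rods in the rat. Among the genes followed, Rbpms encodes an RNA-binding protein that marks nearly all RGCs in the retina and is also made by smooth muscle. Pou4f1 (Brn3a) and Pou4f2 (Brn3b) are POU-domain transcription factors of RGC identity. Nefl, Nefm and Nefh encode the light, medium and heavy neurofilament chains of axons, which horizontal cells also make. Slc17a6 (VGLUT2) loads glutamate into the synaptic vesicles of RGCs, Sncg is gamma-synuclein, Thy1 is a surface glycoprotein, and Nrn1 is the neurite growth factor neuritin.

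The RefSeq promoter table (GRCr8) held 4 of the 10 members, and the 250 bases before the start of the 3 listed below are shown because their genes are the POU factors that define the cell type and the vesicular glutamate transporter of RGCs. Capitals mark the E-box CAGCTG, which reads the same on both strands, and the GC box GGGCGG on either strand; a TATA box (TATAAA, either strand) was searched for too and was not present in these windows. The E-box was present once in each of the 3 windows shown and was not present in that of Sncg, the fourth member held, so 3 of 4 members had it, and it stood in 12.0% of the 33469 RefSeq promoter windows of the same length. Pou4f2 held 5 matches to the GC box, 2 of them overlapping, and Sncg held 1, and 30.5% of all windows held at least one, against 12.9% for the TATA box. These matches are descriptions of the sequence, and binding was not measured.
Slc17a6 promoter (chr1:110348197-110348446, plus strand): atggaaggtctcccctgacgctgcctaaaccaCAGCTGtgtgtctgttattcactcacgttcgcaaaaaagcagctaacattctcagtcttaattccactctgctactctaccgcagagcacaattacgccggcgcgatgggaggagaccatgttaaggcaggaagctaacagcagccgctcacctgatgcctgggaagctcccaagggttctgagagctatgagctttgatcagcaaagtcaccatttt
Pou4f1 promoter (chr15:87674644-87674893, minus strand): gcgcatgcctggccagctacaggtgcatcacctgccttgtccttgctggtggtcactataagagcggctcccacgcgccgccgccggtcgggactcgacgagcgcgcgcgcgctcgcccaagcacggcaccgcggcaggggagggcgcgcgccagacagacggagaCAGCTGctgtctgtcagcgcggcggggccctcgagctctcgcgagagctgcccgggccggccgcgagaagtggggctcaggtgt
Pou4f2 promoter (chr19:46390708-46390957, plus strand): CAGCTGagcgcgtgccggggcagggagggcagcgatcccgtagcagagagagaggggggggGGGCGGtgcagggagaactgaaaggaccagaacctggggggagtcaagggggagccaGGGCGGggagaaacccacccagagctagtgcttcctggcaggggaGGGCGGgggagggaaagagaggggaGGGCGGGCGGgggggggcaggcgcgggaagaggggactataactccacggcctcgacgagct

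Retina libraries held 12283458 to 15644346 counts and RPE/choroid libraries 28573828 to 48203050. Levels are given as CPM, gene counts relative to the library size after TMM scaling over the 9 libraries of a tissue. They are not divided by gene length, so the level of one gene was not ranked against that of another, and a ratio of genes was compared only between libraries. The retina libraries carried the markers of their tissue, with rod genes summing to 36818 to 63492 CPM. The young retina libraries carried lens RNA (3064, 6836 and 171 CPM summed over the lens genes), as did 8-AG library 1 (1867 CPM), against 19.1 to 25.05 CPM in the other 5, and the part of lens RNA in the results below was not tested. In RPE/choroid, the RPE genes summed to 9964 to 19221 CPM in 8 libraries and to 6165 CPM in 8-AG library 1, which stood apart. The description labels of RPE/choroid give young libraries 1 and 2 the same number with L and R, and likewise aged libraries 1 and 2. If such a pair is the left and right eye of 1 rat, which the labels do not say, the young and aged groups there hold fewer animals than libraries and their p-values are too small.

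None of the 10 members passed the test as lower in aged retina. Nefl was higher by 18.3% (95% interval 6.88 to 31.1%), and the other 9 members did not pass the test in either direction. The summed level of the 10 genes was 1206, 1182 and 1253 CPM in the young libraries and 1258, 1428 and 1368 CPM in the aged libraries. In bulk tissue fewer cells of a type and less RNA per cell cannot be told apart, so these levels are not counts of RGCs. A gene was called when its adjusted p was under 0.05 with edgeR's quasi-likelihood test and Benjamini-Hochberg adjustment over all 14588 genes tested, and 14.5% of those genes were called (7.29% higher, 7.26% lower). The 1 call among 10 members was a share near that background. The median log2 fold change of the members was 0.09, against 0.00 over all genes tested, with 8 members above 0 and 2 below. It was 0.16 without aged library 1 and 0.058 without aged library 2.

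The 3 neurofilament genes included the only call in this comparison. Nefl stood at 400, 378 and 418 CPM in the young libraries and at 439, 493 and 483 CPM in the aged libraries. Every aged value lay above every young value, and the log2 fold change was 0.24 ± 0.07 (SE, n = 3 libraries per group, edgeR adjusted p = 0.035). Nefh stood at 159, 158 and 161 CPM in the young and at 168, 188 and 181 CPM in the aged libraries, again without overlap, with a log2 fold change of 0.17 ± 0.06 (SE) and an adjusted p of 0.087 by edgeR. Nefm stood at 164, 167 and 162 CPM in the young and at 165, 178 and 171 CPM in the aged libraries, which overlapped, with a log2 fold change of 0.06. The Nefl call depended on single libraries and on the design, while its log2 fold change stayed between 0.20 and 0.29 when 1 library was left out. With the replicate number as a block its adjusted p by edgeR was 0.073. Its adjusted p by edgeR was 0.110, 0.146 and 0.053 when young library 1, 2 or 3 was left out, 0.075 when aged library 2 and 0.109 when aged library 3 was left out, against 0.019 when aged library 1 was. Over all genes 15.6% were called without aged library 1 and 8.38 to 10.6% without each of the other libraries. Without aged library 1, Nefh (adjusted p = 0.038) and Sncg (adjusted p = 0.024) were called as well, so that 3 members were called.

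**Figure D1:**
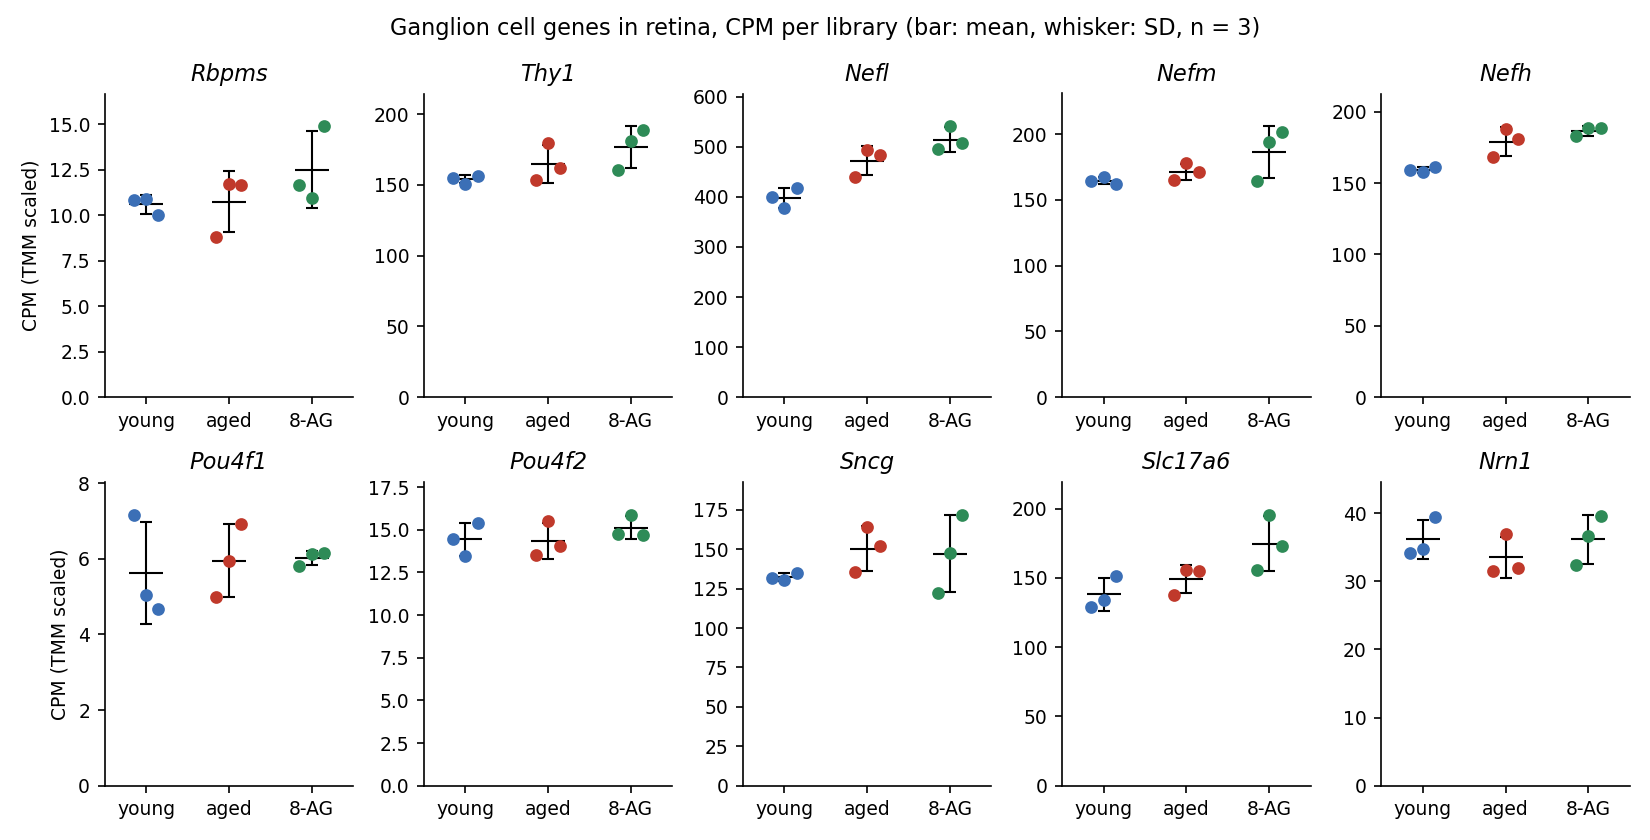
CPM of the 10 RGC genes in each of the 9 retina libraries (y axis from 0, one panel per gene; x axis, group); points are libraries, the horizontal bar is the mean and the whisker the SD of 3 libraries. The aged Nefl points (439 to 493 CPM) lie above the young points (378 to 418 CPM), while the Pou4f1, Pou4f2 and Nrn1 points of the 3 groups overlap.

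The transcription factors of RGC identity did not differ beyond their spread. Pou4f1 stood at 7.17, 5.04 and 4.66 CPM in the young and at 4.99, 5.93 and 6.91 CPM in the aged libraries, a log2 fold change of 0.08 with a 95% interval of -0.38 to 0.55. Pou4f2 stood at 14.5, 13.5 and 15.4 CPM in the young and at 13.5, 15.5 and 14.0 CPM in the aged libraries, with an interval of -0.24 to 0.22. Both sets of values overlapped throughout, and the intervals allow a level in aged retina that is lower by up to 23.1% for Pou4f1 and 15.6% for Pou4f2. Rbpms stood at 10.9, 10.9 and 10.001 CPM in the young and at 8.82, 11.7 and 11.7 CPM in the aged libraries, and its interval reached -17.8%.

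The remaining members were the synaptic and surface genes. Sncg stood at 132, 130 and 135 CPM in the young and at 135, 164 and 152 CPM in the aged libraries. The groups touched without overlapping, and the log2 fold change of 0.18 ± 0.07 (SE) did not pass the adjustment (edgeR adjusted p = 0.119). Slc17a6 stood at 129, 134 and 151 CPM against 137, 155 and 155 CPM, and Thy1 at 155, 151 and 156 CPM against 154, 180 and 162 CPM. Both sets overlapped, with log2 fold changes of 0.11 and 0.10. Nrn1 was the member with the lowest estimate, at 34.1, 34.8 and 39.5 CPM in the young and 31.5, 37.0 and 31.9 CPM in the aged libraries, a log2 fold change of -0.11 with an interval of -0.31 to 0.09. In all, 3 members (Nefl, Nefh and Sncg) had aged values above every young value, against 18.1% of all genes, and no member had aged values below every young value, against 17.2% of all genes. The study's own cut-off, more than 1.5-fold at an unadjusted p below 0.05, was passed by 8.84% of all genes and by no member.

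The aged libraries differed from each other in the same direction for these genes. Aged library 1 was the lowest of its group for all 10 members, and aged library 2 was the highest for 9. The young libraries had no such order, with library 2 the lowest for 5 members and library 3 the highest for 7. Among the 8-AG libraries, library 1 was the lowest for 8 members. TMM scaling sets each library against its other genes, and rod genes took a smaller share of the aged libraries, 36818 to 41405 CPM against 58561 to 63492 CPM in the young. When only library totals were used for scaling, the median log2 fold change of all genes moved from 0.00 to 0.12 and that of the members to 0.21. With these totals 5 members were called (Nefl, Nefh, Sncg, Thy1 and Nefm), as were 19.8% of all genes (2344 higher, 542 lower). Against the summed counts of amacrine, bipolar and horizontal cell genes the medians were 0.14 for all genes and 0.23 for the members. There Nefl, Nefh and Sncg were called, as were 14.8% of all genes (1739 higher, 414 lower). The estimates for Pou4f2 and Nrn1, which were below 0 with TMM, were above 0 with both of these scalings.

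Further RGC genes were read from lists beside the members, where 14.5% of all genes were called (7.29% higher, 7.26% lower). Of 16 RGC transcription factors other than the members, 0 were called by edgeR, 2 had an unadjusted p under 0.05, as did 29.2% of all genes, and the median log2 fold change was 0.00. Of 18 genes of RGC subtypes or enriched in RGCs, 2 rose, 1 fell, 10 had an unadjusted p under 0.05, and the median was 0.11. The gene with the largest change was Spp1 (osteopontin, made by alpha RGCs and also by activated microglia), which stood at 5.01, 4.52 and 4.05 CPM in the young and at 21.3, 40.2 and 19.5 CPM in the aged libraries, without overlap (log2 fold change 2.58, edgeR adjusted p = 0.0072). Microglia genes, all 10 of those tested called higher, rose in the same libraries, summing to 40.8 to 42.6 CPM in the young and 123 to 211 CPM in the aged, and their part in the Spp1 result was not tested. Kcng4, a potassium channel subunit of alpha RGCs, rose from 25.998 ± 5.13 to 47.5 ± 7.65 CPM (mean ± SD, n = 3), and Penk, which encodes proenkephalin, fell from 58.9 ± 4.14 to 46.2 ± 4.21 CPM. Of the 12 genes of neurotrophin signalling and axon survival, only Map3k12 (DLK, a kinase of the axon damage response) was called, and it fell by 0.29 on the log2 scale (edgeR adjusted p = 0.0097).

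Genes of the axon itself were also mostly uncalled, and 14.5% of all genes were called. Of 20 genes of the axon cytoskeleton and transport, Kif5a (a neuronal kinesin) rose from 420 to 493 CPM and Map1b (a microtubule-associated protein) fell from 3074 to 2668 CPM, and 18 did not pass. This list holds genes that other retinal neurons express, so their levels are not those of RGCs alone.

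Genes known to respond to axon injury included 4 that rose. Of 16 listed, 13 were tested and 1 fell, with a median log2 fold change of 0.92. Over all genes 7.29% were called higher and 7.26% lower. An unadjusted edgeR p under 0.05 was found for 7 of the 13 genes, against 29.2% of all genes. Socs3, a feedback inhibitor of cytokine signalling, stood at 0.23, 0.53 and 0.47 CPM in the young and at 5.85, 7.97 and 3.18 CPM in the aged libraries (log2 fold change 3.75, edgeR adjusted p = 0.00074). Fgf2 rose from 3.90 to 15.7 CPM, Stat3 from 86.4 to 183 CPM and Ecel1, an endopeptidase of injured neurons, from 1.79 to 3.41 CPM. Glia and immune cells express several of these genes, and the astrocyte gene Gfap rose in the same libraries from 26.5 to 303 CPM, and the part of glia in the result was not tested. Among the markers of other retinal neurons, 11 of 14 rod genes fell with a median of -0.66, while the medians were -0.04 for 14 amacrine genes, -0.12 for 12 bipolar genes and -0.24 for 6 horizontal genes, with 2, 1 and 2 genes called lower. The bipolar gene Cabp5, a calcium-binding protein, was called higher, from 44.3 to 64.9 CPM (edgeR adjusted p = 0.0019). These medians were set side by side without a test of their differences.

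**Figure D2:**
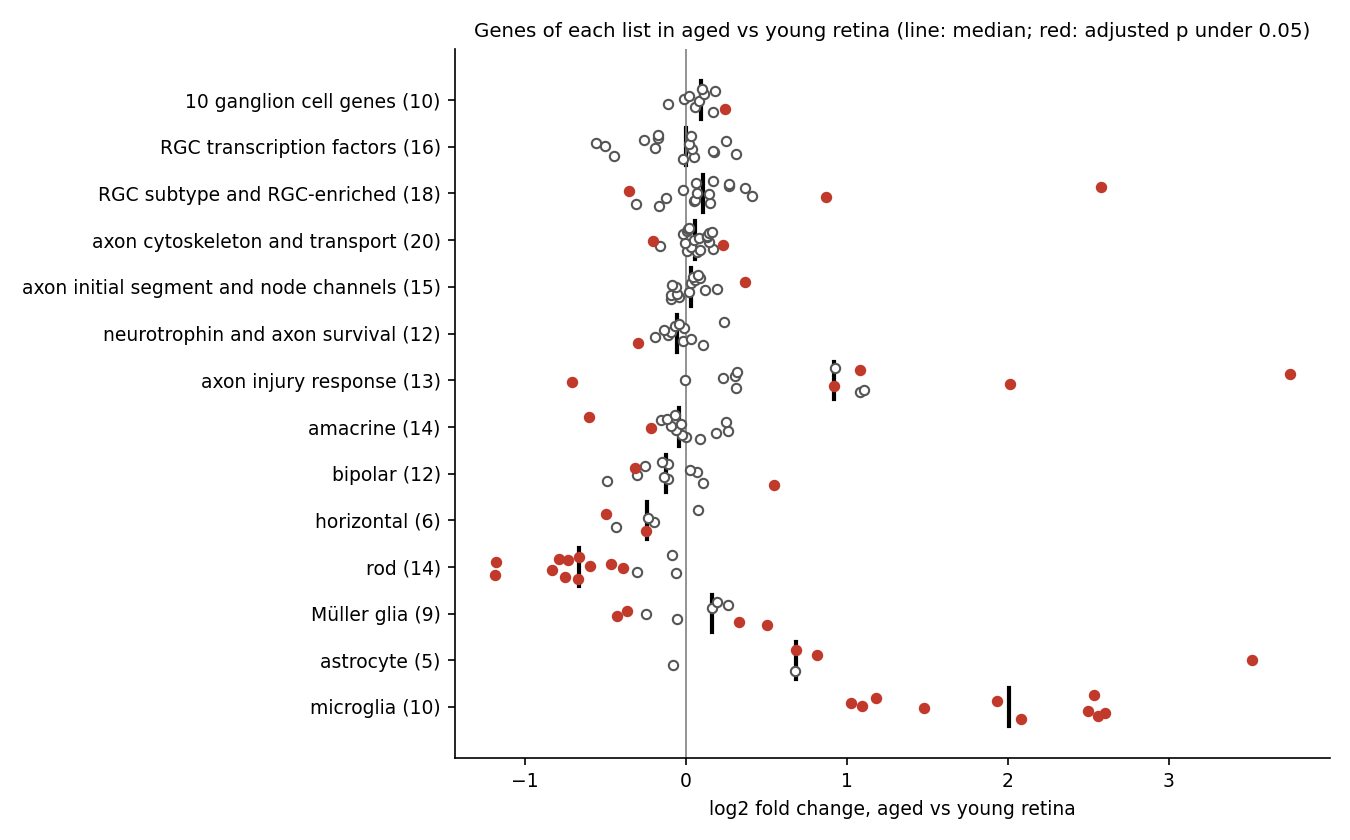
Log2 fold change of each gene in aged against young retina (x axis), by gene list (y axis, number of genes tested in brackets); each point is a gene, red points had an adjusted p under 0.05, and the black line is the list's median. The 10 RGC genes lie between -0.11 and 0.24 with a median of 0.09, beside -0.66 for rod genes, 0.92 for axon injury genes and 2.01 for microglia genes.

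The second comparison asked whether 8-AG changed these genes in aged retina. By edgeR 0 members were called between 8-AG and aged retina, 1 had an unadjusted p under 0.05, and 9 of the 10 estimates were above 0, with a median log2 fold change of 0.10 against 0.00 over all genes. This median was 0.059 without aged library 1 and 0.058 without 8-AG library 3, 0.16 without 8-AG library 1, 0.057 with library totals and 0.19 with inner retinal neuron factors. By edgeR 3 of 14631 genes were called in the whole table (0.0205%), 537 had an unadjusted p under 0.05 (3.67%), and DESeq2 called 18 genes, none of them a member. The summed level of the 10 genes was 1258, 1428 and 1368 CPM in the aged libraries and 1345, 1518 and 1507 CPM in the 8-AG libraries, which overlapped.

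Slc17a6, the vesicular glutamate transporter, and Rbpms had the largest estimates, 0.23 and 0.22 on the log2 scale, and their order and size depended on single libraries. Without 8-AG library 2 Slc17a6 stood at 0.14 and Rbpms at 0.30, and Rbpms was 0.095 without aged library 1 and 0.070 without 8-AG library 3. Slc17a6 stood at 137, 155 and 155 CPM in the aged libraries and at 156, 196 and 173 CPM in the 8-AG libraries, where the lowest 8-AG value and the highest aged value were nearly equal. The log2 fold change was 0.23 ± 0.09 (SE), or 16.9% with a 95% interval of 0.89 to 35.4%, and the edgeR p was 0.040 before and 0.996 after adjustment. Nefl stood at 495, 541 and 507 CPM in the 8-AG libraries, above the 439 to 493 CPM of the aged libraries (log2 fold change 0.12, edgeR adjusted p = 0.996). Nefl and Slc17a6 were the 2 members whose groups did not overlap, and 4.83% of all genes were higher in the same way. No member and 0.957% of all genes passed the cut-off of 1.5-fold. Rbpms stood at 11.7, 10.9 and 14.9 CPM after 8-AG against 8.82 to 11.7 CPM without, with an interval of -10.2 to 50.1%. Sncg was the 1 member with an estimate below 0, at 122, 148 and 172 CPM after 8-AG against 135 to 164 CPM. Thy1 stood at 161, 181 and 189 CPM after 8-AG, Nefm at 164, 194 and 201 CPM, Nefh at 183, 189 and 189 CPM, Pou4f1 at 5.79, 6.11 and 6.15 CPM, Pou4f2 at 14.8, 15.9 and 14.7 CPM, and Nrn1 at 32.4, 36.7 and 39.5 CPM. In each of these 6 the 8-AG values overlapped with the aged values. Over the 10 members the lower ends of the intervals lay between -22.6% (Pou4f1) and 0.89% (Slc17a6).

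In the other RGC, axon and injury lists 0 genes were called by edgeR between 8-AG and aged retina, and their medians lay between -0.03 and 0.06. An unadjusted p under 0.05 was seen for 1 RGC transcription factor, 3 RGC subtype or enriched genes and 1 injury gene. The injury genes had a median log2 difference of -0.0061, with Socs3 at 4.63, 3.83 and 3.74 CPM after 8-AG. Their estimates ran from -0.64 to 5.07. Sprr1a, 1 of them, stood at 1.78, 3.51 and 4.88 CPM after 8-AG, above the 0.00, 0.26 and 0.00 CPM of the aged libraries. Spp1 stood at 36.4, 23.9 and 20.5 CPM after 8-AG, within the range of the aged libraries. Kcng4 stood at 39.2, 34.6 and 29.7 CPM after 8-AG, below each of the aged values of 45.6, 55.9 and 40.9 CPM, and did not pass the test (log2 fold change -0.47, edgeR adjusted p = 0.996).

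Against young retina, 8-AG retina had higher levels of 3 members. Nefl was higher by 29.1% (95% interval 16.5 to 43.0%, log2 fold change 0.37 ± 0.07 SE, edgeR adjusted p = 0.0060), Nefh by 17.1% (7.69 to 27.4%, adjusted p = 0.021 by edgeR) and Slc17a6 by 26.5% (9.72 to 45.9%, adjusted p = 0.036 by edgeR). Over all 14542 genes tested, 14.9% were called, and 7.78% were called higher. All 10 estimates were above 0 with a median of 0.19, against 0.00 over all genes, and the values of Rbpms, Thy1, Nefl, Nefh and Slc17a6 did not overlap with the young values, against 17.8% of all genes. This comparison shares its young libraries with the first comparison and its 8-AG libraries with the second, so it is not a separate line of evidence.

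The number of calls against young retina moved with single libraries. Nefl was called whichever library was left out (edgeR adjusted p from 0.0040 to 0.038). Nefh was not called without young library 1 (adjusted p = 0.079), young library 2 (0.105), young library 3 (0.065) or 8-AG library 2 (0.087), all by edgeR. Slc17a6 was not called without young library 1 (edgeR adjusted p = 0.136), young library 2 (0.142), 8-AG library 2 (0.135) or 8-AG library 3 (0.081), and with dispersions that were not robust its adjusted p by edgeR was 0.053. Leaving out 8-AG library 1, the one that was lowest for 8 members, gave 6 calls, with Thy1 (edgeR adjusted p = 0.013), Nefm (0.013) and Sncg (0.024) added, and the other libraries gave 1 or 2. The share of all genes called moved too, to 16.6% without 8-AG library 1 and 14.6% without 8-AG library 3. It was 6.96 to 8.87% without each of the other libraries. With library totals 5 members were called, as were 14.6% of all genes. With the size factors from inner retinal neurons 5 members were called too, as were 22.3% of all genes (3065 higher, 177 lower). The genes behind these factors had medians below 0 against young retina, -0.08 for 14 amacrine genes, -0.36 for 12 bipolar genes (11 below 0, 5 called lower, 1 higher) and -0.31 for 6 horizontal genes (6 below 0, 1 called lower). Against aged retina all 12 bipolar genes had estimates below 0, with a median of -0.24, and 0 were called by edgeR, with 1 at an unadjusted p under 0.05.

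**Figure D3:**
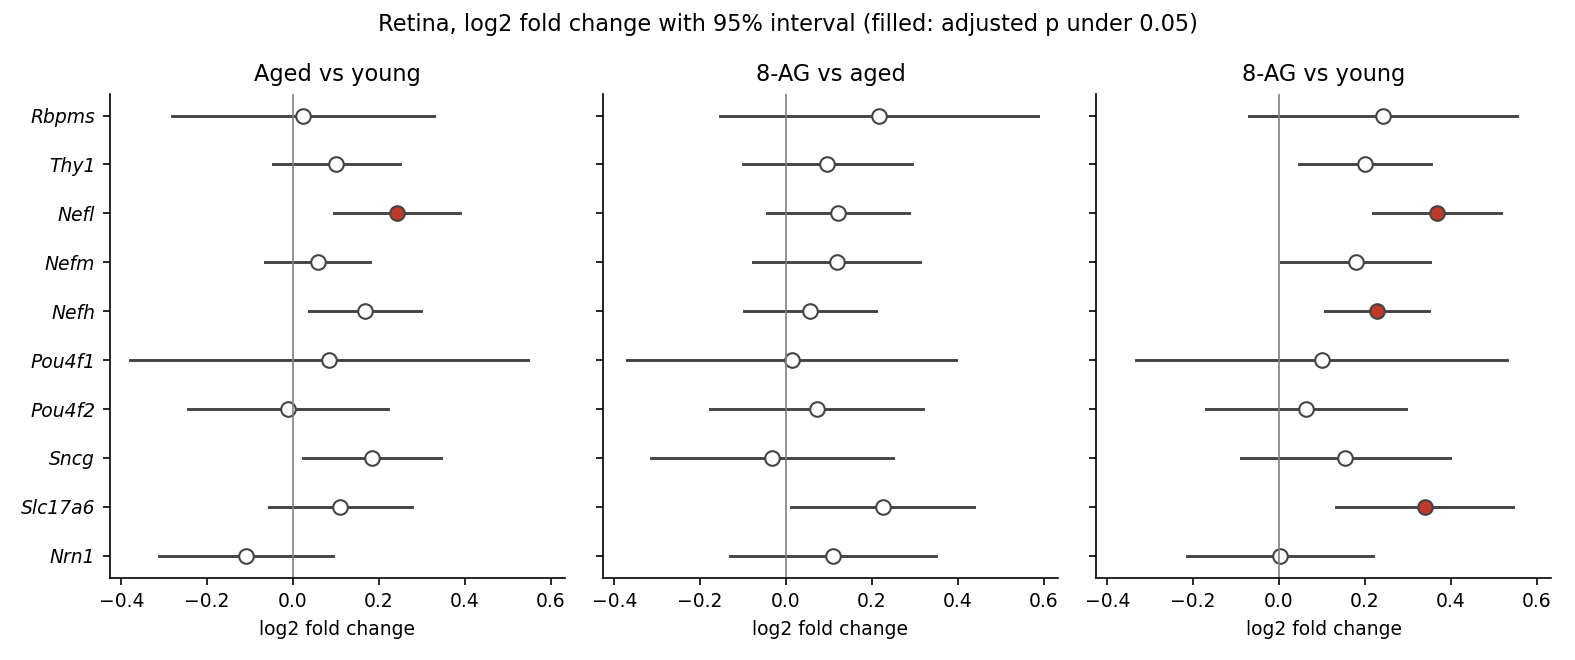
Log2 fold change (x axis) of each RGC gene (y axis) in the 3 retina comparisons, as points with 95% intervals from the edgeR fit of 3 against 3 libraries; filled points had an adjusted p under 0.05. Nefl is filled at 0.24 for aged against young, no gene is filled for 8-AG against aged, and Nefl (0.37), Nefh (0.23) and Slc17a6 (0.34) are filled for 8-AG against young.

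The same lists were read for 8-AG against young retina, where 14.9% of all genes were called and 7.78% were called higher. Of the 18 RGC subtype and RGC-enriched genes 5 rose, 1 fell and 12 had an unadjusted p under 0.05, which 29.2% of all genes had. The called genes included Vsnl1 (visinin-like 1, a neuronal calcium sensor, 84.5 to 108 CPM) and Tppp3 (a tubulin-binding protein, 23.4 to 29.5 CPM), both higher, and Penk (58.9 to 45.5 CPM), lower. Of the 20 axon cytoskeleton genes 3 rose, namely Stmn2 (a microtubule regulator of growth cones, 145 to 178 CPM), Kif5a (420 to 508 CPM) and Map1a (404 to 467 CPM). Of the 16 RGC transcription factors 0 were called by edgeR, and 2 had an unadjusted p under 0.05. Of the 14 injury genes tested 5 rose and 1 fell, and 7 had an unadjusted edgeR p under 0.05. In the same libraries 11 of 11 microglia genes rose, summing to 139 to 147 CPM against 40.8 to 42.6 CPM in the young, and Gfap rose from 26.5 to 261 CPM, and the part of glia in these results was not tested. Sprr1a, a gene of the injury list, stood at 1.78, 3.51 and 4.88 CPM in the 8-AG libraries, at 0.08, 0.15 and 0.00 CPM in the young and at 0.00, 0.26 and 0.00 CPM in the aged libraries. Its 8-AG values lay above all others, it was called against young retina (edgeR adjusted p = 0.00099), and it was not called against aged retina (edgeR adjusted p = 0.189). Which cells the Sprr1a RNA came from was not tested.

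The levels of the members followed each other across the 9 retina libraries to different degrees. The Pearson correlation of log2 levels was 0.97 for Nefl with Nefh and 0.92 for Thy1 with Nefm, and -0.20 for Pou4f1 with Nrn1. These are descriptions over 9 libraries of 1 tissue, in which the groups differ in age and treatment. A profile was made as the mean standardised level of the 9 members that averaged at least 10 CPM, and 10072 other genes were ranked by their correlation with it. The 10 most alike were Vps35, Mocs2, Zwint, Psmd6, Hsbp1, Ypel5, Msantd4, Serinc1, Rab1a and Calb2, with correlations from 0.99 for Vps35 to 0.96 for Calb2, and 104 genes were above 0.9. None of the 10 was called in aged against young retina, with log2 fold changes between 0.03 and 0.15.

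In RPE/choroid, RGC genes were present, and most of them varied widely between libraries of the same group. RPE is the pigmented epithelium behind the photoreceptors and the choroid is the vascular layer beneath it, and neither holds RGCs. Nefl stood at 220, 198 and 11.7 CPM in the young, 117, 23.9 and 298 CPM in the aged and 505, 26.5 and 44.0 CPM in the 8-AG libraries. Slc17a6 stood at 33.3, 34.3 and 1.82 CPM, at 10.7, 2.36 and 34.02 CPM and at 68.8, 4.00 and 3.54 CPM in the same order. Each group held at least 1 high and at least 1 low library for both genes, and the low library of the young group was number 3, that of the aged group number 2. Pou4f2 stood at 0.07 to 1.80 CPM. The gene identified as Pou4f1 through its retina values had 0.00 to 0.19 CPM in RPE/choroid.

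Rod genes, which mark photoreceptors, differed between the same libraries. Their sum was 18133, 20081 and 2023 CPM in the young, 11713, 632 and 16952 CPM in the aged and 56506, 917 and 889 CPM in the 8-AG libraries. In the 5 libraries with the most rod RNA, Nefl was 117 to 505 CPM, Nefm 21.6 to 131 CPM, Nefh 29.1 to 60.1 CPM, Slc17a6 10.7 to 68.8 CPM, Pou4f2 0.29 to 1.80 CPM and Thy1 94.3 to 225 CPM. In the other 4 libraries they were 11.7 to 44.0, 2.13 to 9.75, 14.0 to 21.6, 1.82 to 4.00, 0.07 to 0.17 and 63.0 to 84.9 CPM, so the ranges of these 6 genes did not overlap. Amacrine genes moved with them, summing to 691 to 2289 CPM in the first 5 libraries and to 74.2 to 208 CPM in the other 4. The ratio of Nefl to Slc17a6 in CPM lay between 5.79 and 12.5 over the 9 libraries, that of Nefl to Nefm between 2.72 and 6.64, and that of Nefl to Nefh between 0.84 and 13.2. What part neural retina left on the eye cup, or cells of the RPE/choroid itself, had in these values was not tested.

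The remaining members differed from these 6. Rbpms was highest in aged library 2 (81.8 CPM), which had the lowest rod sum, and lowest in 8-AG library 1 (5.79 CPM), which had the highest. Fibroblast and pericyte genes had their lowest sum in that same 8-AG library, 1150 CPM against 4706 to 11947 CPM in the other 8, and their part in the Rbpms values was not tested. Sncg was 91.1 to 154 CPM and Nrn1 7.22 to 12.6 CPM in 4 of the 5 libraries with the most rod RNA, above the 64.4 to 74.9 and 6.01 to 6.27 CPM of the 4 low ones. In the remaining library of the 5, aged library 1, they stood at 64.7 and 6.03 CPM, within the range of the low libraries, so Sncg and Nrn1 were higher with rod RNA in all but that library.

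**Figure D4:**
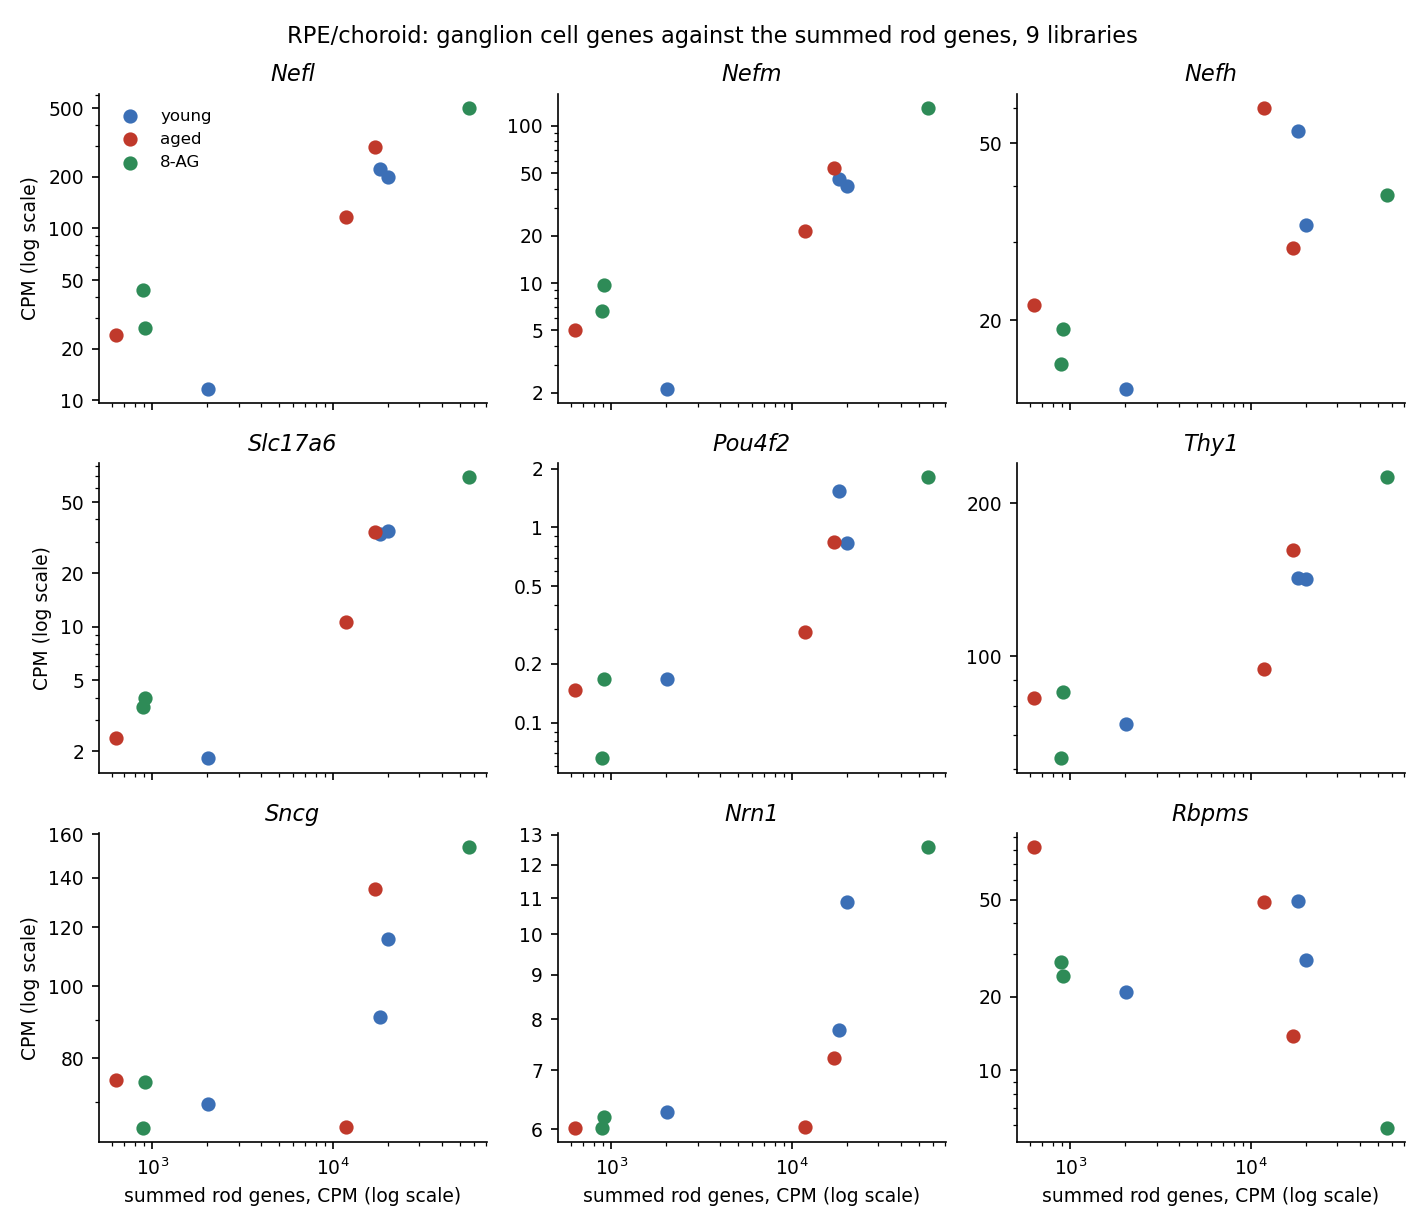
CPM of 9 RGC genes in RPE/choroid (y axes, log scale) against the summed CPM of 14 rod genes (x axis, log scale); each point is one of 9 libraries, coloured by group. Points of each group stand at both low and high rod sums, and Nefl, Nefm, Nefh, Slc17a6, Pou4f2 and Thy1 are higher in each of the 5 libraries with rod sums from 11713 CPM than in the 4 with sums up to 2023 CPM, while the ranges of Rbpms, Sncg and Nrn1 overlap between these libraries.

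No member was called in RPE/choroid by either comparison. Between aged and young, edgeR called 0 of 16047 genes (0.0%), with 341 (2.13%) at an unadjusted p under 0.05, and DESeq2 called 34 genes and no member. The estimates for the 9 members ran from -0.99 to 0.55 with a median of -0.09, against 0.02 over all genes, and no member's groups were apart, against 7.1% of all genes. The members' median lay between -0.54 without young library 3 and 0.13 without young library 2. Between 8-AG and aged, edgeR called 0 of 16257 genes (0.0%), with 274 (1.69%) at an unadjusted p under 0.05, DESeq2 called 41 genes and no member, and the estimates ran from -1.31 to 0.92. Again no member's groups were apart, against 3.96% of all genes. The median of 0.39 turned to -1.08 when 8-AG library 1 was left out. With the libraries that share a label number summed, no member was called, and the medians were 0.21 for aged against young and 0.11 for 8-AG against aged. The 95% intervals were at least 1.29 wide on the log2 scale for aged against young and at least 2.01 wide for 8-AG against aged, so changes of the size seen in retina were not detectable here.

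The change with age was compared between the tissues in a model with a tissue by age term, fitted with limma's voom on the genes counted in both. The difference was called for 6 of 16792 genes (0.0357%) and for none of the 10 members, and 0 members were under an unadjusted p of 0.05, which 7.06% of all genes were. The lowest member p was 0.42, for Sncg, whose log2 change was higher in retina by 0.25 with an interval of -0.41 to 0.91. Pou4f1 entered this model because its retina counts passed the filter, and it had 0 to 6 counts in RPE/choroid. The intervals of Nefl reached from -2.62 to 2.65, so the comparison says little about the neurofilament genes.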

How the data were processed

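Poly-A RNA-seq libraries of neural retina and RPE/choroid were analysed, 3 for each of 3 groups per tissue. The submitters' processing notes name Bowtie2 2.1.0, RSEM 1.2.15, edgeR and the genome build Rnor_6.0, and 2 tables of gene counts were used. For retina the authors deposited RSEM expected counts, 11.5% of which were not whole, and they were rounded here. For RPE/choroid the authors deposited whole counts. A deposited table of TMM-normalised retina CPM (treated as a signal relative to scaled library size) supplied gene symbols, by matching its values to the counts within 0.15 counts, and an alternative test. Of 15065 identifiers named by this match and by the RPE/choroid tables, 91.1% carried the same name. The authors' tables of fold changes and p-values were used for gene names only, and no value of theirs is printed. Column names reading Compound were taken as the 8-AG group.

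Genes passing edgeR's filterByExpr (at least 10 counts in the smallest group's libraries, scaled for depth) were tested between the 2 groups of each comparison with TMM factors, robust dispersions and the quasi-likelihood test (edgeR 4.0.16, R 4.3.3), with Benjamini-Hochberg adjustment over all genes tested. Intervals of 95% come from the fit. The tissue difference was fitted with limma 3.58.1 and DESeq2 1.42.0 was an alternative. Depth was 12283458 to 15644346 counts in retina and 28573828 to 48203050 in RPE/choroid, and the number of libraries, 3 per group, limits the precision. The labels do not say that libraries came from separate rats, so p-values measure the spread between these libraries. Members, gene lists and tests were chosen with earlier results of these data known. Named genes were the 10 members, up to 4 called genes per list by size of change with a mean of at least 1 CPM, and the 10 genes most like the members over the retina libraries. Markers of other cells served for description. Sequences come from RefSeq (GRCr8). The tests were checked on simulated data. The planted changes there were larger than the members' estimates in retina and in the tissue difference. That check therefore does not give the power for changes of the size of these estimates.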

Additional observations from a re-analysis of the deposited data

How the results depend on the processing

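With 3 libraries per group, the spread between libraries limited every comparison. No member was called between 8-AG and aged retina, in either RPE/choroid comparison or in the tissue difference under any alternative run (another size factor, DESeq2, no filter or a filter of 10 counts in every library, all 9 libraries in one fit, the replicate block, the libraries sharing a label number summed, a rod covariate, and each library left out; not every one applied to each). For aged against young retina the count of 1 member became 0 with the replicate block, 5 with library totals and 3 with inner retinal neuron size factors. It was 0 to 3 when 1 library was left out. The share of all genes called went from 14.5% to 11.6%, 19.8% and 14.8% with these settings, and to 8.38 to 15.6% with 1 library left out. The members' median of 0.09 became 0.21 and 0.23 with library totals and inner neuron factors and 0.058 to 0.16 with 1 library left out. For 8-AG against young retina the count of 3 became 5 with both of these scalings. It was 2 without robust dispersions, where Slc17a6 had an adjusted p of 0.053 (edgeR), and 1 to 6 with 1 library left out. The share of all genes called went from 14.9% to 14.6% with library totals, 22.3% with inner neuron factors and 13.4% without robust dispersions. It was 6.96 to 16.6% with 1 library left out. The members' median of 0.19 became 0.41 with inner neuron factors and 0.11 to 0.27 with 1 library left out. Over all genes, 50.1% of the calls for aged against young were higher with TMM, 81.2% with library totals and 80.8% with inner neuron factors; for 8-AG against young the shares were 52.3%, 71.4% and 94.5%, where the median log2 fold change of all genes was 0.0047, 0.07 and 0.22. The cause of these shifts was not tested. For 8-AG against aged retina the median of 0.10 lay between 0.058 and 0.16 with 1 library left out. In RPE/choroid the median for aged against young lay between -0.54 and 0.13 with 1 library left out and was -0.31 with the replicate block, and that for 8-AG against aged lay between -1.08 and 0.56 and was -0.0011 with the block.

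Correlations of the deviations of same-numbered retina libraries were -0.09, -0.10 and 0.11 for aged with young, 0.098, 0.054 and 0.11 for 8-AG with aged and 0.26, -0.31 and 0.16 for 8-AG with young. In no comparison was every pair above 0.1, so the number was not taken as a pairing. With the replicate block 0 members and 11.6% of all genes were called for aged against young, and Nefl had an adjusted p of 0.073 (edgeR). For 8-AG against young 3 members and 13.3% of all genes were called, and no other call of a member changed.

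Signs changed for members that were not called in the comparison concerned. Aged against young, Pou4f2 was 0.10 and 0.13 and Nrn1 0.0061 and 0.029 with library totals and inner neuron factors, and with 1 library left out Rbpms ranged from -0.044 to 0.14, Pou4f1 from -0.040 to 0.30 and Pou4f2 from -0.071 to 0.034. For 8-AG against aged, Pou4f1 was -0.031 with library totals and -0.094 to 0.13 with 1 library left out, and Sncg was 0.060 with inner neuron factors and -0.15 to 0.085. For 8-AG against young, Pou4f1 ranged from -0.019 to 0.31 and Nrn1 from -0.064 to 0.078 with 1 library left out, and Nrn1 was -0.013 without a filter and -0.0050 and -0.0052 with limma on the deposited values at pseudocounts of 1 and 0.1. The scalings by library totals and inner neurons and the rod covariate were chosen after seeing the data.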
